A study of Mus musculus with 36 samples.

Results

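Angptl4, Acot1, Acot2, Cpt1a, Pdk4 and Plin2 are genes of fatty acid handling that are known in mouse tissues as targets of the peroxisome proliferator-activated receptors (PPARs). They were selected by name, 6 of the 36930 entries of the deposited count table, with measured changes of these same libraries in view. Their changes are therefore given as descriptions, and a test that one of them passes is not independent evidence for the choice. All 6 passed the filter on low counts and were among the 16065 genes tested.

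The study sequenced bulk RNA from mouse embryonic fibroblasts, cells grown out of mouse embryos, in 12 groups of 3 libraries. Cells were PERK WT (WT here) or PERK -/- (Perk-null here). PERK, encoded by Eif2ak3, is a kinase of the endoplasmic reticulum (ER) that phosphorylates the translation factor eIF2α during ER stress. Each genotype received 1 of 6 treatments: the solvent DMSO, thapsigargin, BtdCPU, halofuginone, BtdCPU together with thapsigargin, or halofuginone together with thapsigargin. Thapsigargin empties the ER of calcium by inhibiting its pump and so provokes ER stress, BtdCPU activates the eIF2α kinase HRI, and halofuginone inhibits prolyl-tRNA synthetase, which activates the eIF2α kinase GCN2. The labels give no dose, time, batch or clone, and they do not say that replicates were separate cultures, so the p-values measure the spread between these libraries, which may be technical. Both genotypes carry the same cell line name, so the loss of PERK and any other difference between the WT and the Perk-null cells cannot be told apart.

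PPARs are nuclear receptors that bind fatty acids and, with a retinoid X receptor partner, switch on genes for taking up, storing and oxidising fat. PPARα is best known from liver, PPARγ from fat cells, and PPARδ is found in most tissues. Acyl-CoA thioesterases split fatty acyl-CoA into free fatty acid and coenzyme A, Acot1 in the cytosol and Acot2 in mitochondria. Cpt1a carries long-chain acyl groups into mitochondria, Pdk4 shuts off pyruvate dehydrogenase, Plin2 coats lipid droplets, and Angptl4 is a secreted inhibitor of lipoprotein lipase.

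Acot1 and Acot2 are near copies, and the sequences bear on how far their counts can be separated. In the GENCODE M21 models (GRCm38) their coding sequences of 1257 and 1359 bases were 95.3% identical over 1236 aligned bases. The longest coding stretch without a mismatch ran for 273 bases, from coding base 887 of Acot1 and from coding base 1010 of Acot2, and a read inside it fits both genes. It is shown here whole.
Shared coding run of Acot1 and Acot2: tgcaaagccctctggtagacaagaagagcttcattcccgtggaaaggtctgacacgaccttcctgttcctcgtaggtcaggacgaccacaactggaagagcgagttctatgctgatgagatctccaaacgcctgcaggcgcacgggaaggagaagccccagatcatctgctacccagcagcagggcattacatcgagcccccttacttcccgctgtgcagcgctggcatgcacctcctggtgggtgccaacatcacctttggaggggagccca
Of all windows of 100 bases of the transcripts, 16.5% of those in Acot1 also occurred in Acot2, and 17.1% of those in Acot2 occurred in Acot1. None of the windows of Acot2 occurred in Acot3, Acot4, Acot5 or Acot6.

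The 250 bases before the start sites of Acot1 and Acot2 were far less alike, 55.7% identical over 221 aligned bases. They are printed from RefSeq (GRCm38.p6) because the genes moved differently in WT cells. The Acot1 stretch is chr12:84009252-84009501 on the plus strand, and the Acot2 stretch is chr12:83987611-83987860 on the plus strand.
Acot1: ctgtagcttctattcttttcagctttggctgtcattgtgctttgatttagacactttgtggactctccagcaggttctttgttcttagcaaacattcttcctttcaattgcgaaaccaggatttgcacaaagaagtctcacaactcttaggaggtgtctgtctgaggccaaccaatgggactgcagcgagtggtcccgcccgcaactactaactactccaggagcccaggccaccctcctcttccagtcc
Acot2: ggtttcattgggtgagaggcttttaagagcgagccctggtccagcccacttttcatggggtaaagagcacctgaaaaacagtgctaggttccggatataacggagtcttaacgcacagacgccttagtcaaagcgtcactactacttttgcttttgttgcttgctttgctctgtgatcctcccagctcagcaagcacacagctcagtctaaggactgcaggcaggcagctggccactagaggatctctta
Both strands of the same window were searched for the PPAR direct repeat AGGTCANAGGTCA, for its single repeat unit AGGTCA, which the repeat contains, and for TGATGNAA, a composite site bound by the stress factor ATF4. RefSeq held promoters for 5 of the 6 genes, Angptl4 being the other, and none of the 5 held the repeat or the composite site. Over 32851 promoters, 0.0335% held the repeat, 14% the single unit and 3.45% the composite site. With the repeat and the composite site this rare, finding neither in 5 promoters says little. Wider windows and other spellings were not searched. The single unit was found in 2 genes, on the minus strand in gene direction, and is in capitals in both. Cpt1a has it 94 bases before the start, within chr19:3323051-3323300 on the plus strand, and Plin2 has it 218 bases before the start, within chr4:86670060-86670309 on the minus strand.
Cpt1a: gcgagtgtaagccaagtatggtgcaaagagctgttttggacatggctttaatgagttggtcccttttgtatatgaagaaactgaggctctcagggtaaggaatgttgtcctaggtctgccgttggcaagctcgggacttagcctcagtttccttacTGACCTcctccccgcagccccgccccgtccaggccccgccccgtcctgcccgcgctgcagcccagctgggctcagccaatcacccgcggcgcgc
Plin2: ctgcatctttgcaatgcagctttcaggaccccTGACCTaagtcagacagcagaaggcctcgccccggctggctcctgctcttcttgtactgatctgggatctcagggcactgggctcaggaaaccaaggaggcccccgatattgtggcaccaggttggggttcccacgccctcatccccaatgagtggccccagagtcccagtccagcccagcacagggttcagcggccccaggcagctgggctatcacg
A match of this kind describes the letters and shows no binding.

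Library totals ran from 32454257 to 37178107 counts, and levels below are CPM, counts scaled to the usual per-million unit of the adjusted library size, as mean ± SD over 3 libraries. Eif2ak3 itself was at 31.1 ± 1.10 CPM in WT and 9.95 ± 0.760 CPM in Perk-null cells in DMSO, and every Perk-null library lay below every WT library of the same treatment. All 12 fibroblast markers were detected, with summed levels between 15112.6 and 40331.9 CPM per library. Of 9 adipocyte markers, Adipoq, Plin1, Cidec, Lep and Cfd were at 3 counts or fewer in every library, and the 9 together reached at most 6.52 CPM. Differences are log2 differences with their standard error (SE) from edgeR's quasi-likelihood test, and "rose" or "fell" is used where its Benjamini-Hochberg adjusted p was below 0.05.

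Between the genotypes in DMSO, 4 of the 6 genes were far lower in Perk-null cells, Plin2 was slightly higher, and Cpt1a was not called. With 5 of 6 called, the background was 49.5% of all tested genes. Acot1 was 303-fold lower in Perk-null than in WT cells, Pdk4 29.2-fold, Angptl4 25.3-fold and Acot2 8.78-fold, as ratios of mean CPM. The log2 differences were -8.21 (SE 0.243) for Acot1, -4.87 (SE 0.254) for Pdk4, -4.66 (SE 0.295) for Angptl4 and -3.13 (SE 0.273) for Acot2. In none of these 4 genes did a Perk-null library reach a WT library in DMSO. The genotypes did not overlap in DMSO for Cpt1a and Plin2 either, so non-overlap does not set the 4 apart. Its share over all genes was not counted. In bulk RNA, fewer cells expressing a gene and less RNA per cell cannot be told apart.

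Compared per kilobase of exon, Pdk4 and Plin2 were the most abundant of the 6 in WT cells in DMSO, at 38.2 and 34.1 CPM per kilobase, followed by Acot1 at 12.6 and Angptl4 at 11.7. In Perk-null cells Plin2 stood at 41.8 CPM per kilobase and Cpt1a at 6.05, while Pdk4 was at 1.31, Acot2 at 0.742, Angptl4 at 0.464 and Acot1 at 0.0415. Plin2 and Cpt1a were thus the 2 genes whose Perk-null level was not below the WT level.

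**Figure D1:**
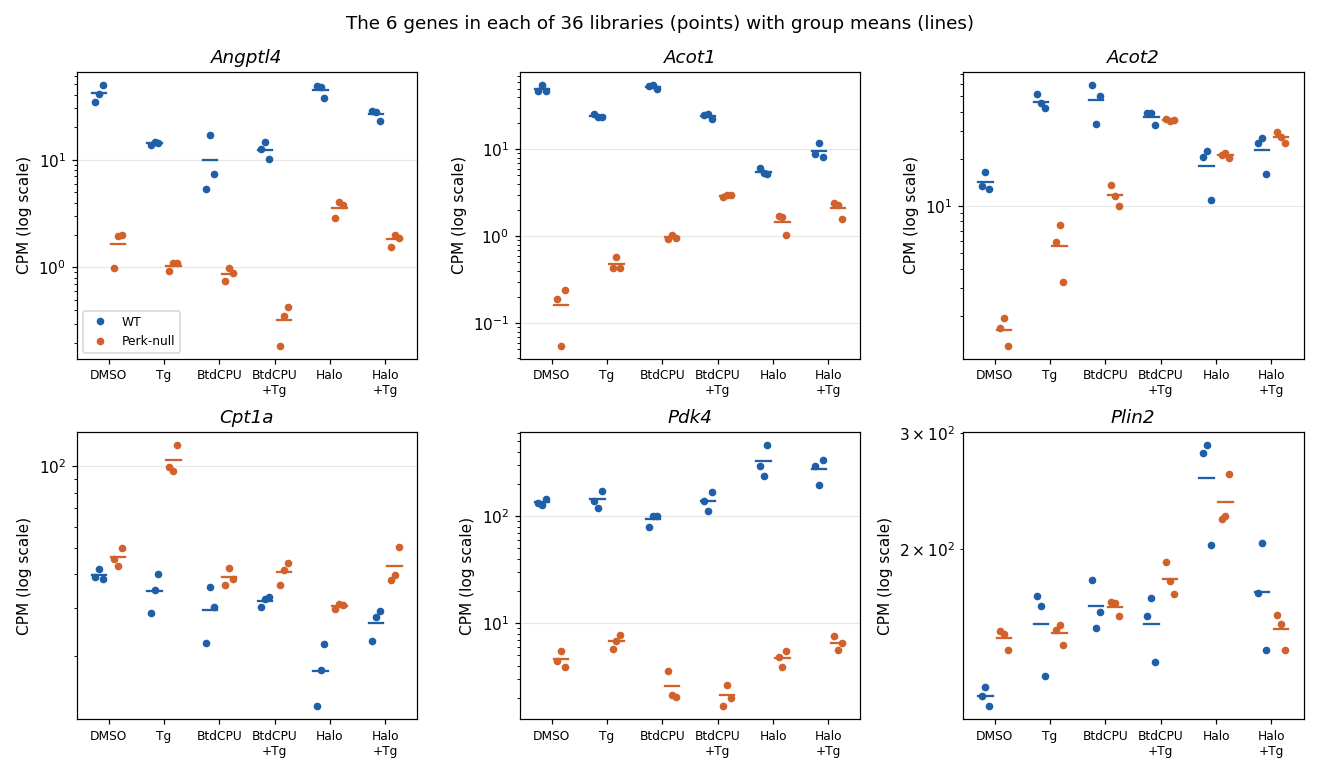
Level of each gene in CPM (log axis) in all 36 libraries by treatment, WT in blue and Perk-null in orange, with points for libraries and lines for group means. Acot1, Pdk4 and Angptl4 were lower in every Perk-null library than in any WT library of the same treatment, Acot2 was not under the combined treatments or halofuginone, and Plin2 overlapped between the genotypes in 4 of 6 treatments.

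Acot1 held a high count in WT cells and almost none in Perk-null cells. In DMSO the WT libraries held 46.5, 54.8 and 46.8 CPM (1628, 1948 and 1511 counts), and the Perk-null libraries held 7, 2 and 9 counts. In halofuginone the WT libraries held 6.04, 5.28 and 5.15 CPM, below every other WT library, and the Perk-null libraries held 63, 60 and 38 counts. As counted, the genotypes thus moved toward each other under halofuginone. WT cells fell by 3.17 (SE 0.165) on the log2 scale, while Perk-null cells rose by 3.14 (SE 0.290). Perk-null Acot1 counts, here and below, are uncertain, because the assignment of reads that fit both Acot1 and Acot2 was not tested.

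Thapsigargin also moved the counts assigned to Acot1 in opposite directions. The WT libraries went to 25.3, 23.3 and 23.6 CPM and fell by 1.03 (SE 0.149) on the log2 scale, whereas the Perk-null libraries went to 16, 21 and 16 counts and rose by 1.53 (SE 0.348). With BtdCPU alone the WT libraries, at 53.2, 55 and 48.8 CPM, overlapped those in DMSO, and the Perk-null libraries, at 35, 39 and 35 counts, rose by 2.55 (SE 0.308). The highest Perk-null counts, 105, 109 and 111, came from BtdCPU with thapsigargin, a mean 18-fold above DMSO. Even there the WT mean was 8.32-fold higher, against 3.75-fold in halofuginone, the smallest gap of the 6 treatments. In order of mean level Acot1 ran in WT cells from BtdCPU and DMSO, which overlapped, through BtdCPU with thapsigargin and thapsigargin, which overlapped, to halofuginone with thapsigargin and halofuginone, which were separate.

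Acot2 rose in all 5 comparisons of Perk-null cells and overlapped the WT libraries in 3 treatments. The Perk-null libraries held 1.67, 1.93 and 1.29 CPM in DMSO and 5.88, 7.64 and 3.31 in thapsigargin. In BtdCPU they held 511, 437 and 369 counts, a mean of 11.7 CPM. They then held 21.1, 21.8 and 20.3 CPM in halofuginone and 29.8, 27.4 and 25.4 in halofuginone with thapsigargin. The top was BtdCPU with thapsigargin, at 35.9, 34.8 and 35.6 CPM, a mean 21.7-fold above DMSO. The 6 Perk-null groups did not overlap with each other. Against DMSO the rise was 1.78 (SE 0.278) for thapsigargin, 2.85 (SE 0.273) for BtdCPU and 3.69 (SE 0.274) for halofuginone on the log2 scale, and against thapsigargin alone it was 2.66 (SE 0.245) for BtdCPU with thapsigargin and 2.30 (SE 0.243) for halofuginone with thapsigargin.

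In WT cells Acot2 responded to fewer of the treatments. The libraries held 13.4, 16.6 and 12.9 CPM in DMSO, 51.5, 45.6 and 42.1 in thapsigargin, and 59.3, 33.4 and 50.7 in BtdCPU, a rise of 1.70 (SE 0.232) and of 1.74 (SE 0.232) on the log2 scale. Halofuginone, at 20.7, 22.5 and 10.9 CPM, overlapped DMSO with a difference of 0.33 (SE 0.230) that was not called. Without the third halofuginone library it was 0.55 with an adjusted p of 0.0332 (edgeR), so that library decided the call. Halofuginone with thapsigargin fell by 1.02 (SE 0.226) on the log2 scale against thapsigargin alone.

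The share of the pair's counts that went to Acot1 varied in WT cells and was low in Perk-null cells. In WT cells it was 77.6% ± 0.791 in DMSO, 34.3% ± 1.54 in thapsigargin, 52.9% ± 8.17 in BtdCPU and 24.5% ± 6.70 in halofuginone (SD, n = 3). In Perk-null cells the group means lay between 6.46% and 9.62% in all 6 treatments, while Acot2 itself ranged 21.7-fold. Single Perk-null libraries in DMSO ran from 2.78% to 15.8%, and they rest on 2 to 9 Acot1 counts. Across the 6 Perk-null group means the log2 levels of Acot1 and Acot2 had a Pearson r of 0.9966, against 0.3578 across the 6 WT means; these are descriptions over groups that share a cell line. How the counting assigned reads of the shared stretches was not tested, and Perk-null Acot1 counts are uncertain for that reason. Summed, the pair differed by -5.15 (SE 0.232) between Perk-null and WT cells in DMSO. The sum changed by 0.15 (SE 0.181) in WT cells with thapsigargin, which was not called.

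**Figure D2:**
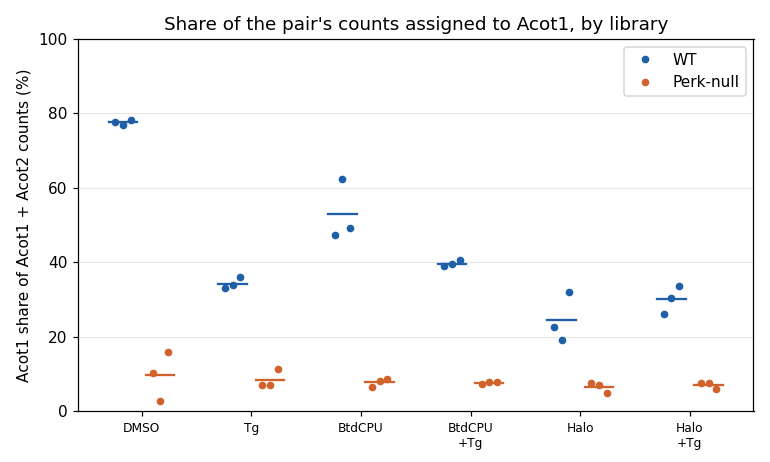
Percent of the counts of Acot1 and Acot2 together that were assigned to Acot1, by library (points) and group mean (lines), WT in blue and Perk-null in orange. The WT means run from 24.5% to 77.6%, and the Perk-null means stay between 6.46% and 9.62%.

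The neighbouring thioesterase genes were lower in Perk-null cells in DMSO as well. In halofuginone Acot4 overlapped between the genotypes, at 6, 1 and 2 counts in WT and 0, 2 and 3 in Perk-null libraries. In RefSeq (GRCm38.p6) chromosome 12 carries Acot2, Acot1, Acot4, Acot3, Acot5 and Acot6 in that order. These 4 further genes are on the thioesterase list and are named here after their values were seen. Acot3 had 3 to 55 counts in the 18 WT libraries and was at 0 in 17 of 18 Perk-null libraries, with 1 count in the other. Acot6 had 7 to 61 counts in WT libraries and was at 0 in 16 of 18 Perk-null libraries. Acot4 and Acot5 had 1 to 24 and 4 to 35 counts in WT libraries, and at most 4 and 3 counts in Perk-null libraries. Taking 3 counts per library as the limit that a count of 0 allows, Acot3 was at least 16.8-fold, Acot6 at least 12.8-fold, Acot5 at least 8.04-fold and Acot4 at least 5.24-fold lower in Perk-null than in WT cells in DMSO. All 6 genes were thus lower in Perk-null cells in DMSO. Of 13 tested neighbours outside the thioesterase row, 3 were called, a smaller share than the 49.5% of all tested genes. Rnf113a2 at -1.78 (SE 0.216) and Abcd4 at -1.003 (SE 0.117) were lower in Perk-null cells, and Coq6 at 0.47 (SE 0.103) was higher. The nearest tested genes on either side, Numb at 0.002 (SE 0.128) and Dnal1 at -0.35 (SE 0.240), were not called.

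**Figure D3:**
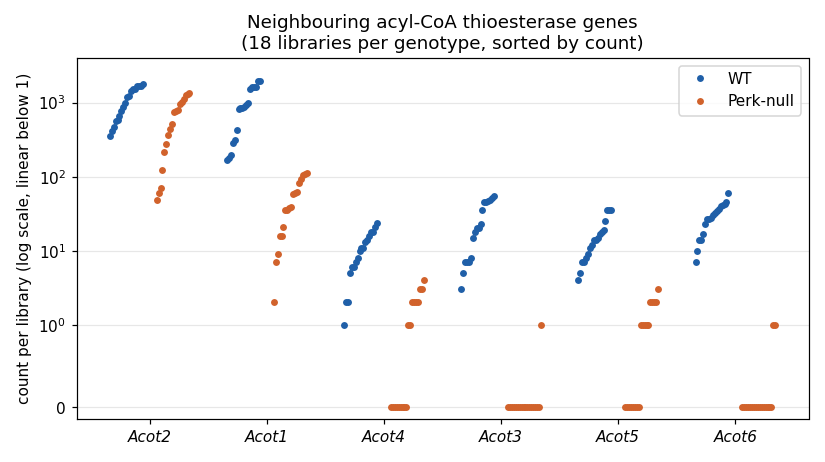
Counts per library (log axis, linear below 1) of the 6 thioesterase genes in chromosome order, 18 WT libraries in blue and 18 Perk-null libraries in orange, each sorted by count. Acot3 was at 0 in 17 and Acot6 at 0 in 16 Perk-null libraries, while Acot2 reached 1340 counts there.

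Angptl4 was lower in Perk-null cells under all 6 treatments, between 11.2-fold with BtdCPU and 38.2-fold with BtdCPU and thapsigargin. The BtdCPU gap was 7.25-fold without WT BtdCPU replicate 2. In WT cells the libraries held 34.6, 40.5 and 49.5 CPM in DMSO, 13.7, 14.6 and 14.4 in thapsigargin, and 5.37, 16.8 and 7.31 in BtdCPU. Both treatments lay below DMSO without overlap, and Angptl4 fell by 1.54 (SE 0.247) on the log2 scale with thapsigargin. The second BtdCPU library held more Angptl4 than the other 2, and without it the log2 difference moved from -2.07 to -2.71. Halofuginone libraries, at 48.4, 47.2 and 37.6 CPM, overlapped DMSO. Added to thapsigargin, halofuginone raised Angptl4 to 28.6, 27.7 and 22.6 CPM, a rise of 0.88 (SE 0.245) on the log2 scale.

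In Perk-null cells Angptl4 lay close to zero throughout. The libraries held 36, 71 and 74 counts in DMSO, 34, 40 and 41 in thapsigargin and 28, 37 and 33 in BtdCPU. Only halofuginone alone stood above DMSO, at 107, 147 and 138 counts, a rise of 1.12 (SE 0.294) on the log2 scale. BtdCPU with thapsigargin, at 7, 13 and 16 counts, fell by 1.67 (SE 0.425) on the log2 scale against thapsigargin alone. Halofuginone with thapsigargin rose by 0.81 (SE 0.328) against thapsigargin, but the adjusted p of 0.0377 (edgeR) was lost in 5 of 6 fits without 1 library. By mean level the order in WT cells was halofuginone and DMSO, which overlapped, then halofuginone with thapsigargin, and then thapsigargin, BtdCPU with thapsigargin and BtdCPU, which overlapped with their neighbours.

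Pdk4 rose with halofuginone in WT cells and stayed low in Perk-null cells. The WT libraries held 131, 127 and 144 CPM in DMSO, 292, 235 and 460 in halofuginone and 294, 196 and 336 in halofuginone with thapsigargin. Every library with halofuginone stood above every other WT library, and the spread among them was wide. The rise was 1.29 (SE 0.210) on the log2 scale against DMSO, and 0.94 (SE 0.209) for halofuginone with thapsigargin against thapsigargin. WT thapsigargin libraries held 140, 120 and 171 CPM and overlapped DMSO. WT BtdCPU libraries, at 79.5, 100 and 99.4 CPM, lay below DMSO without overlap, and the difference of -0.53 (SE 0.209) was not called, with an adjusted p of 0.0663 (edgeR).

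The Perk-null libraries held 161, 198 and 146 Pdk4 counts in DMSO and 180, 141 and 200 in halofuginone, which overlapped. BtdCPU with thapsigargin gave 63, 98 and 74 counts against 212, 250 and 288 in thapsigargin alone, and Pdk4 fell by 1.67 (SE 0.262) on the log2 scale. The gap between the genotypes ran from 21.2-fold in thapsigargin to 69.4-fold in halofuginone.

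Cpt1a, the gate of mitochondrial fatty acid oxidation, rose in 1 group only, Perk-null cells in thapsigargin. These libraries held 99.5, 96.6 and 120 CPM, against 45.7, 43.1 and 49.9 in Perk-null cells in DMSO, a rise of 1.19 (SE 0.154) on the log2 scale. No other library of the 36 exceeded 50.5 CPM. With BtdCPU added to thapsigargin the Perk-null libraries were at 36.4, 41.5 and 44.2 CPM, and with halofuginone added they were at 38.0, 39.8 and 50.5. Against thapsigargin alone Cpt1a thus fell by 1.37 (SE 0.155) and by 1.30 (SE 0.154) on the log2 scale, back to levels that overlapped DMSO.

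In WT cells thapsigargin left Cpt1a at 28.8, 35.1 and 40.2 CPM, overlapping the 39.0, 41.7 and 38.4 CPM of DMSO. Halofuginone gave the lowest libraries of the series, 13.1, 17.7 and 22.2 CPM, and Cpt1a fell by 1.17 (SE 0.158) on the log2 scale. In Perk-null cells halofuginone gave 29.7, 31.0 and 30.7 CPM, and Cpt1a fell by 0.60 (SE 0.154) on the log2 scale. 2 smaller falls in WT cells lay close to the threshold. With BtdCPU the difference was -0.43 (SE 0.155), and its adjusted p of 0.0452 (edgeR) was lost in 5 of 6 fits without 1 library, with differences from -0.59 to -0.26. With halofuginone and thapsigargin it was -0.39 (SE 0.155), and its adjusted p of 0.0414 (edgeR) was lost in 4 of 6, with differences from -0.51 to -0.27. Apart from the thapsigargin group of Perk-null cells at the top and the halofuginone group of WT cells at the bottom, neighbouring groups in the order of levels overlapped. Cpt1a overlaps Gm36532 in RefSeq and Plin2 overlaps Gm12551, and the use of strand in counting is not given in the sources used here.

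Plin2 rose with halofuginone in both genotypes. The WT libraries held 120, 124 and 116 CPM in DMSO and 280, 287 and 203 in halofuginone, a rise of 1.10 (SE 0.122). The Perk-null libraries held 150, 149 and 141 CPM in DMSO and 222, 225 and 260 in halofuginone, a rise of 0.68 (SE 0.121). The difference between these responses, -0.42 (SE 0.170), had an adjusted p of 0.0573 (edgeR). In WT cells Plin2 also rose with BtdCPU, by 0.45 (SE 0.121) on the log2 scale, and with thapsigargin, by 0.36 (SE 0.121), the latter lost in 2 of 6 fits without 1 library and the former without BtdCPU replicate 1 (adjusted p of 0.0622, edgeR). In Perk-null cells neither was called, at 0.16 (SE 0.121) and 0.03 (SE 0.121). The higher level of Perk-null cells in DMSO, 0.29 (SE 0.121) with an adjusted p of 0.0450 (edgeR), was lost in each of the 6 fits without 1 library. Apart from the 2 halofuginone groups at the top and WT cells in DMSO at the bottom, neighbouring groups in the order of Plin2 levels overlapped.

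**Figure D4:**
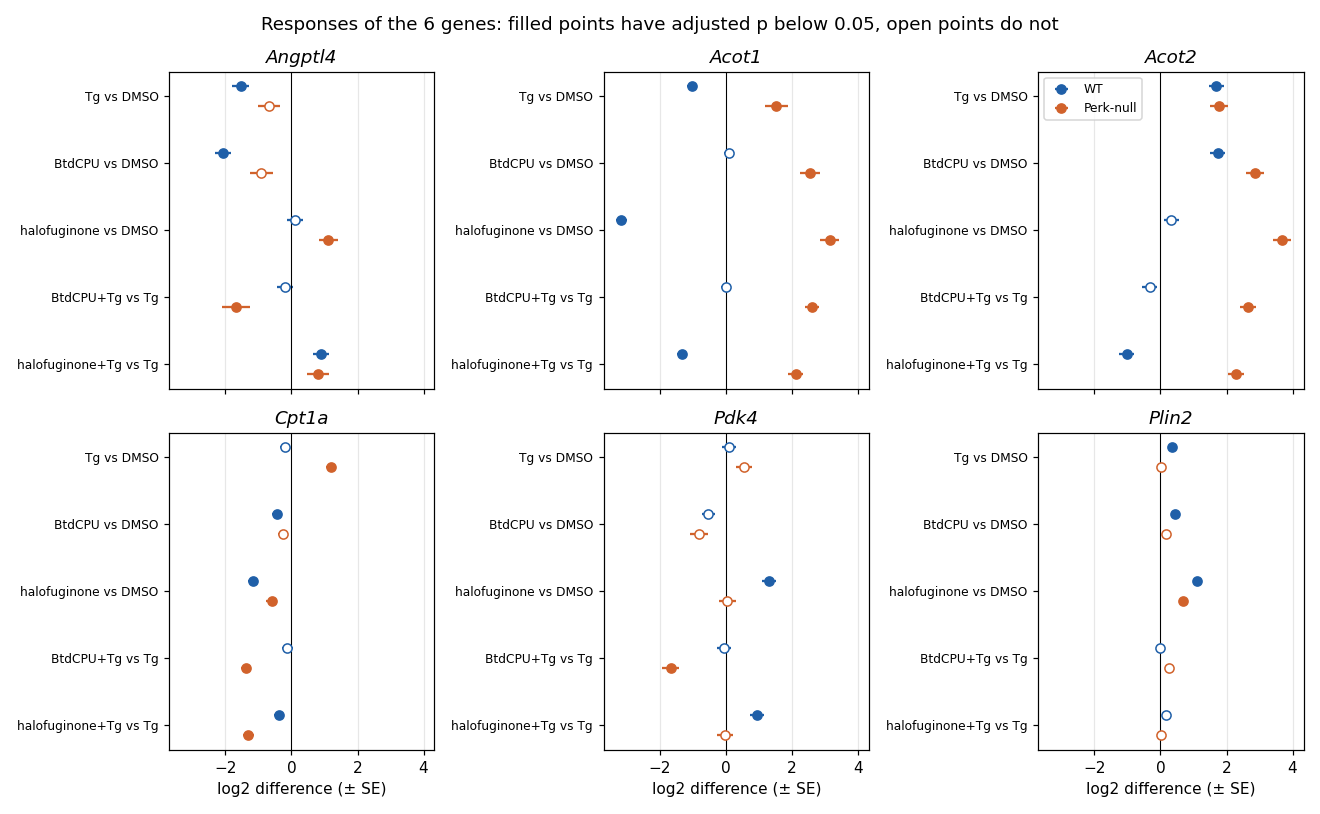
Log2 differences with their SE for 5 comparisons in WT (blue) and Perk-null cells (orange), filled where the adjusted p was below 0.05. Acot1 lies left of 0 in WT and right of 0 in Perk-null cells for thapsigargin, halofuginone and halofuginone with thapsigargin, and Cpt1a lies near 1.19 in Perk-null cells with thapsigargin and near -0.19 in WT cells.

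Counted over the 6 genes, the shares called were set against those of all tested genes. In WT cells thapsigargin moved 4 of 6 (47.6% of all genes), 2 up and 2 down, BtdCPU 4 of 6 (22.2%), 2 up and 2 down, and halofuginone 4 of 6 (68.2%), 2 up and 2 down. Halofuginone added to thapsigargin moved 5 of 6 (45.3%), 2 up and 3 down. In Perk-null cells thapsigargin moved 3 of 6 (27.9%), all up, and BtdCPU moved 2 of 6 (3.59%), both thioesterases. Halofuginone moved 5 of 6 (42.2%), 4 up and 1 down. BtdCPU added to thapsigargin moved 5 of 6 (35.6%), 2 up and 3 down, and halofuginone added to thapsigargin moved 4 of 6 (52.7%), 3 up and 1 down. In several comparisons the share of the 6 lay near the background, so a count alone says little about these genes.

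BtdCPU added to thapsigargin called none of the 6 in WT cells by edgeR, where 2.32% of all genes were called, none at an unadjusted p under 0.05, and none by DESeq2. With the replicate number as a block, which pairs the libraries of this comparison, the count was also 0, and halofuginone added to thapsigargin in WT cells, paired likewise, kept a count of 5. The same addition in Perk-null cells gave Acot1, Acot2, Angptl4, Cpt1a and Pdk4. Log2 differences and their SEs are given throughout from the fit without the block, also for the paired comparisons.

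The responses of the genotypes were then compared directly, as Perk-null minus WT. For thapsigargin 2 of 6 genes differed (38.1% of all genes), for BtdCPU 1 of 6 (0.199%, or 32 genes, against 845 without WT BtdCPU replicate 2) and for halofuginone 5 of 6 (35%). For BtdCPU added to thapsigargin 5 of 6 differed (20.8%), and for halofuginone added to thapsigargin 4 of 6 (32.7%). Acot1 differed in all 5, with differences from 2.46 (SE 0.346) for BtdCPU to 6.30 (SE 0.320) for halofuginone. These rest on the uncertain Perk-null Acot1 counts. Summed with Acot2, the pair also differed in all 5, from 1.62 (SE 0.292) for thapsigargin to 5.09 (SE 0.293) for halofuginone. This sum is no test of Acot1 alone. In DMSO Acot1 made up 77.6% of it in WT cells and 9.62% in Perk-null cells. The Acot2 difference for thapsigargin, 0.09 (SE 0.352), was not called, and Acot2 differed by 3.36 (SE 0.356) for halofuginone. Cpt1a differed by 1.38 (SE 0.217) for thapsigargin. For Plin2 none of the 5 differences was called.

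Of the receptors, Ppara was at 0 in 33 of 36 libraries and at most at 3 counts in the others, so it was not tested. Ppard lay between 22.9 and 38.2 CPM in group means, and in WT cells it rose by 0.48 (SE 0.111) with BtdCPU and 0.42 (SE 0.111) with halofuginone (log2). Pparg was at 2.11, 1.66 and 1.11 CPM in WT cells in DMSO and at 7.70, 8.16 and 7.72 in Perk-null cells, 4.82-fold higher without overlap and a log2 difference of 2.26 (SE 0.250). Pparg was thus higher in the genotype in which Acot1, Acot2, Angptl4 and Pdk4 were lower.

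The Pparg response to thapsigargin differed between the genotypes by -1.70 (SE 0.340). In WT cells it went to 4.05, 3.46 and 4.11 CPM, a rise of 1.24 (SE 0.255) on the log2 scale, and in Perk-null cells to 5.99, 4.83 and 6.30 CPM, a difference of -0.46 (SE 0.225) that was not called. Added to thapsigargin in Perk-null cells, BtdCPU gave 20.3, 17.3 and 23.2 CPM and halofuginone 15.6, 17.6 and 21.8 CPM, rises of 1.83 (SE 0.225) and 1.68 (SE 0.225) (log2). Neither addition was called for WT, at 0.23 (SE 0.234) and -0.10 (SE 0.238). Given alone, however, both drugs went with more Pparg than DMSO in WT cells too. As ratios of mean CPM to DMSO, WT cells were at 3.48 with BtdCPU (single libraries from 1.84 to 4.88) and 3.23 with halofuginone. Perk-null cells were at 1.67 with BtdCPU, a difference that was not called, and at 2.57 with halofuginone. The summed level of the adipocyte markers in Perk-null cells was 3.24 to 4.55 CPM with BtdCPU and thapsigargin and 3.39 to 5.51 CPM in DMSO, ranges that overlapped; their part in the Pparg values was not tested.

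Of 59 other known PPAR targets 43 were tested. This list was chosen with earlier results of these data known, so its shares are descriptions, not independent evidence. Of the 16 left out, 13 were at 3 counts or fewer in every library. Among these 13 were Cyp4a10, Fabp1, Adipoq and Pck1, known from liver and fat. With thapsigargin 17 of the 43 (39.5%) were called in WT cells, 2 up and 15 down, against 47.6% of all tested genes, and 17 in Perk-null cells, 16 up and 1 down, against 27.9%. The list's median log2 difference was -0.27 for WT and 0.33 for Perk-null, against 0.02 and 0.05 over all tested genes. The Perk-null count was smaller in each fit that left out 1 of its libraries, between 7 and 12. The responses themselves differed for 18 of the 43 (41.9%, near the 38.1% of all genes), all 18 higher in Perk-null cells, and for 15 to 19 when 1 library was left out.

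The genes called down in WT and up in Perk-null cells with thapsigargin were 6 of 43 (14%), against 3.86% of all tested genes. They were Acadm and Acadl, which oxidise medium- and long-chain acyl-CoA, Cpt2 and Crat of the carnitine shuttle, the peroxisomal enzyme Hsd17b4, and Hsdl2, and they are named after their values were seen. Acadm held 57.5, 57.5 and 48.3 CPM in WT DMSO and 36.9, 37.6 and 29.3 in thapsigargin, and in Perk-null cells it held 55.4, 48.0 and 46.1 and then 86.4, 86.1 and 85.0 CPM. The WT libraries fell and the Perk-null libraries rose without overlap. Acadm and Acadl were called in both genotypes in every fit without 1 library, so 2 of the 6 held throughout. Crat and Hsd17b4 lost the Perk-null call in all 6 such fits, Hsdl2 in 4 of 6 and Cpt2 in 3 of 6, and in WT cells Hsdl2 lost its call in 4 of 6 and Cpt2 in 2 of 6. The difference between the genotypes was called for each of the 6 genes in all 12 such fits. Mlycd, which clears the Cpt1 inhibitor malonyl-CoA, rose by 0.99 in Perk-null cells, the most of the moderately or highly expressed targets.

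**Figure D5:**
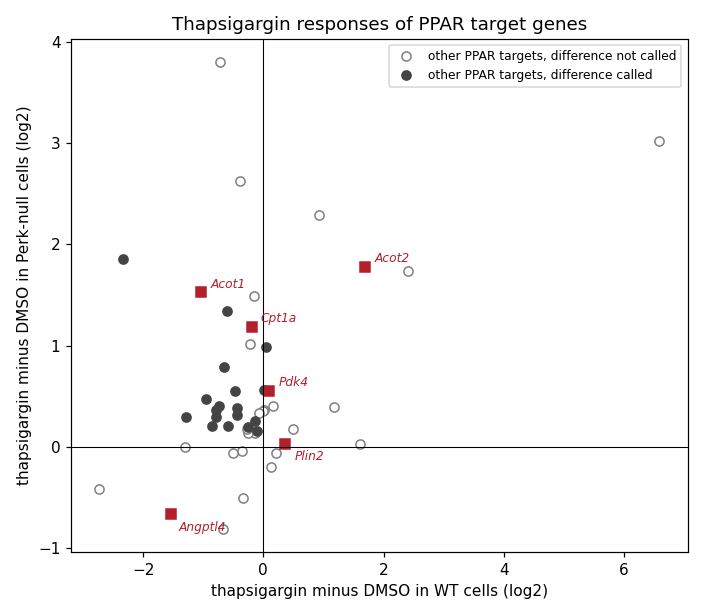
Log2 difference between thapsigargin and DMSO in WT cells (x axis) and Perk-null cells (y axis) for 43 other PPAR targets (circles, filled where the responses differed at an adjusted p below 0.05) and the 6 genes (red squares). Of the 43, 25 (58.1%) lie at the upper left, lower in WT and higher in Perk-null cells, against 26% of all tested genes. Both shares count signs, called or not. The 25 include Acot4, at 0, 2 and 0 counts in the Perk-null thapsigargin libraries. The point at the far right is Fgf21, at 6.59 and 3.02.

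With halofuginone most of the called targets were lower in both genotypes. The shares called lay at the background, 69.8% against 68.2% of all genes in WT cells and 41.9% against 42.2% in Perk-null cells. In WT cells 30 of 43 were called, 5 up and 25 down, with Acads, a short-chain acyl-CoA dehydrogenase, at -2.28, the largest fall among moderately or highly expressed targets. In Perk-null cells 18 were called, 5 up and 13 down, with Acadm at -1.38 and Mlycd at 0.94. Added to thapsigargin, halofuginone called 17 in WT cells (39.5% against 45.3% of all genes), 3 up and 14 down, and 25 in Perk-null cells (58.1% against 52.7%), 4 up and 21 down. Cpt1a also fell with halofuginone in both genotypes, while Plin2 and, in WT cells, Pdk4 rose.

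BtdCPU called 4 of 43 (9.3%) in each genotype, 3 up and 1 down in WT cells, where 22.2% of all genes were called, and 4 up in Perk-null cells, where 3.59% were. They included the fatty acid transporter Slc27a1, at 0.73 and 1.02 the largest rises among moderately or highly expressed targets. Added to thapsigargin, BtdCPU called 16 in Perk-null cells (37.2% against 35.6% of all genes), 5 up and 11 down, with Acadm at -1.21. In WT cells it called none by edgeR, 10 at an unadjusted p under 0.05, none by DESeq2 and 7 with the replicate number as a block. Between the genotypes in DMSO 26 were called (60.5% against 49.5%), 12 higher and 14 lower in Perk-null cells, with Slc27a1 at 1.60 and the fatty acid binding protein Fabp5 at -1.97.

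From each related gene list, the member called in most comparisons was named. Pdk1, another kinase of pyruvate dehydrogenase, followed Cpt1a: in Perk-null cells it went from 13.6, 15.6 and 13.6 CPM in DMSO to 29.2, 34.0 and 34.8 in thapsigargin, a rise of 1.20 (SE 0.174) on the log2 scale. With BtdCPU added it lay between 10.6 and 12.4 CPM. Lpin1, a lipin that acts as a PPAR coactivator, fell with halofuginone, at -2.06 for WT and -2.23 for Perk-null. Angptl6, a relative of Angptl4, moved the other way with thapsigargin in WT cells, at 4.12 against -1.54. Dgat2, which makes triglyceride, rose with halofuginone, at 1.32 for WT and 1.43 for Perk-null, and the carnitine shuttle list's acyl-CoA synthetase Acsl3 fell, at -1.41 and -0.93. The thioesterase Ppt2 was at -1.29 and -0.36, the hypoxia-induced oxidase Ero1l at 2.00 and 1.72, and the glucocorticoid target Errfi1 at 2.34 and 1.03 in the same comparisons.

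Counted by list, halofuginone in WT cells, where 68.2% of all genes were called, moved 13 of 19 receptor partners and coregulators (10 up), 12 of 15 other thioesterases (4 up, 8 down) and 11 of 15 genes of pyruvate dehydrogenase and its kinases (2 up, 9 down). It moved 13 of 15 carnitine shuttle genes (4 up, 9 down), 8 of 13 lipid droplet genes (3 up, 5 down) and 8 of 10 angiopoietin-like and lipoprotein lipase genes (2 up, 6 down). Of 16 hypoxia targets 14 moved, 7 each way, and of 11 glucocorticoid targets 9 moved, 8 of them up, with a median of 1.48. Thapsigargin in Perk-null cells, with a background of 27.9%, moved 9 of 15 carnitine shuttle genes (7 up, 2 down), 7 of 13 lipid droplet genes (6 up, 1 down), 8 of 16 hypoxia targets (6 up, 2 down) and 7 of 11 glucocorticoid targets (3 up, 4 down). It also moved 4 of 10 angiopoietin-like and lipoprotein lipase genes (3 up, 1 down), 5 of 15 genes of pyruvate dehydrogenase and its kinases (4 up, 1 down), 5 of 19 receptor partners and coregulators (3 up, 2 down) and 3 of 15 other thioesterases (2 up, 1 down).

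Over the 12 group means of log2 CPM, the genes most like each of the 6 were taken among 7238 tested genes with enough level and range. Pdk4 was closest to Vps4b, Gm21451 and Gm3579, each at a Pearson r of 0.99, and Acot1 to Igfbp4 (0.98), Fam13c and Serpinf1 (0.95 each). Angptl4 was closest to S1pr2, Scamp5 and Gtf2a2 (0.96 each). These 9 genes were all lower in Perk-null cells, with differences in mean log2 CPM from -0.66 to -3.58. Acot2 was closest to Tmem17, Fam195b and Katnal1 (0.97, 0.97 and 0.93), and Cpt1a to Dcaf11, Pdk1 and Rnf181 (0.97, 0.96 and 0.96). Plin2 was closest to Ubr4, Spire1 and B3gnt2 at lower values (0.89, 0.88 and 0.86). The groups share cell lines and treatments, and the values describe these 12 means only.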

How the data were processed

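Per the labels' protocols, a QuickRNA kit gave the RNA, ribosomal RNA was depleted or mRNA selected, and DNBSEQ libraries kept strand. The authors deposited estimated counts for each gene, unscaled. Of the deposited values, 50.6% are a placeholder of 0.025, read here as 0, and 2.69% of the others are not whole. The submitters' processing notes name the build GRCm39 and the tool DESeq. The aligner and counter are not given in the sources used here. RefSeq (GRCm38.p6) and GENCODE M21 were used for sequences, names and lengths only.

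27 entries named by dates (0.206% to 0.278% of a library's counts) were left out, repeated symbols were summed, and counts were rounded. Groups follow genotype and treatment in the labels. R 4.3.3 and edgeR 4.0.16 (TMM, filterByExpr, robust quasi-likelihood test, 12 group means, 24 residual degrees of freedom) gave 16 contrasts, with Benjamini-Hochberg adjustment over the 16065 genes tested. The code was tested on simulated data. CPM used no prior count, and likeness used log2 CPM with a prior count of 2. Libraries totalled 32454257 to 37178107 counts. A count of 0 allows up to 3 counts, and floors cover counting error only. No library repeated another (chi-square per degree of freedom at least 9.06).

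The 6 genes and all lists were chosen with earlier results of these data known. Named beside them were Ppara, Ppard, Pparg, the called PPAR target with the largest rise and fall per comparison (mean log2 CPM of at least 2), the gene of each other list called in most comparisons, and the 3 genes most like each of the 6 (range of group means of at least 1). Some genes that this rule names are not reported here. Same-numbered libraries deviated together, with every correlation over 0.1, for BtdCPU with thapsigargin against thapsigargin (lowest 0.159) and halofuginone with thapsigargin against thapsigargin (lowest 0.162) in WT cells only; the pairing rests on the replicate numbers of the labels and these correlations. Alternatives were DESeq2 1.42.0, other scalings, no filter, only the compared groups, a replicate block, each library left out, and Acot1 and Acot2 summed.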

Additional observations from a re-analysis of the deposited data

Results flagged for a closer look

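Results whose response differed between the genotypes are listed as the Perk-null response minus the WT response, on the log2 scale, with the interaction test of edgeR (adjusted p below 0.05).

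For thapsigargin against DMSO the difference was 2.56 for Acot1, 1.38 for Cpt1a and -1.70 for Pparg. For BtdCPU against DMSO it was 2.46 for Acot1. For halofuginone against DMSO it was 6.30 for Acot1, 3.36 for Acot2, 1.02 for Angptl4, 0.57 for Cpt1a, -1.25 for Pdk4 and -0.47 for Ppard. The Angptl4 difference was lost in 4 of 12 fits without 1 library, and the Cpt1a difference in 7 of 12. The Ppard difference was lost in 6 of 12. For BtdCPU with thapsigargin against thapsigargin it was 2.59 for Acot1, 2.98 for Acot2, -1.46 for Angptl4, -1.25 for Cpt1a, -1.62 for Pdk4 and 1.60 for Pparg. The Angptl4 difference there was lost in 7 of 12 fits without 1 library. For halofuginone with thapsigargin against thapsigargin it was 3.44 for Acot1, 3.32 for Acot2, -0.91 for Cpt1a, -0.97 for Pdk4, -0.66 for Ppard and 1.79 for Pparg, and the Pdk4 difference was lost in 4 of 12 fits without 1 library. The Acot1 differences rest on Perk-null counts that are uncertain, because the assignment of reads shared with Acot2 was not tested. Groups of 3 libraries were not searched for single outlying libraries.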

How the results depend on the processing

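No log2 difference of the 6 genes changed sign with its call except where Acot1 and Acot2 were summed: the sum was at 0.15 for WT thapsigargin, where Acot1 alone fell, and at -1.44 for WT halofuginone, where Acot2 alone was not called. Over fits that left out 1 library, 705 values of the 6 genes kept their side of the threshold, 45 lost a call and 6 gained one. Without the filter on low counts the genes called rose to 5 for Perk-null thapsigargin, 4 for Perk-null BtdCPU and 3 for the BtdCPU interaction, and the PPAR targets called were 7 for WT BtdCPU, 2 for WT BtdCPU with thapsigargin and 10 for Perk-null thapsigargin. With the replicate number as a block, 4 genes were called for the thapsigargin interaction, and 8 PPAR targets for WT BtdCPU and 7 for WT BtdCPU with thapsigargin. The latter was 1 with library size as the only scaling, and WT BtdCPU gave 2 with only the compared groups fitted. Leaving out 1 library gave 2 to 4 genes for WT BtdCPU (2 without its replicate 1), 1 to 2 for the BtdCPU interaction, 3 to 5 for the halofuginone interaction, and 2 to 9 PPAR targets for WT BtdCPU, 2 to 4 for Perk-null BtdCPU and 7 to 12 for Perk-null thapsigargin. Over all genes the block raised the calls from 372 to 2079 for WT BtdCPU with thapsigargin, 577 to 1577 for Perk-null BtdCPU, 3571 to 5534 for WT BtdCPU and 32 to 587 for the BtdCPU interaction, and DESeq2 gave 866, 877, 4058 and 161. Leaving out 1 library gave 1780 (without WT BtdCPU replicate 1) to 5062 (without replicate 2) for WT BtdCPU, 41 to 331 for WT BtdCPU with thapsigargin, 326 to 405 for Perk-null BtdCPU and 14 to 845 for the BtdCPU interaction. Library size alone moved the median of all genes by -0.11 for WT halofuginone and by 0.10 for its interaction, and the share of higher calls from 58.1% to 45.1% for WT BtdCPU, from 55.9% to 80.7% for WT BtdCPU with thapsigargin and from 51.6% to 41.4% for its interaction. The causes were not tested. Depth limits Acot1 and Angptl4 in Perk-null cells, where libraries held as few as 2 and 7 counts. The interactions of Ppard and Pparg, the PPAR targets' thapsigargin interaction, the Angptl4 ratio with BtdCPU, and the alternatives for Pdk1 and the 6 targets called in opposite directions were added after seeing the data.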
